A study of Mus musculus with 17 samples.

Results

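The 10 genes of the brain's endothelial barrier described here are Cldn5, Pecam1, Cdh5, Flt1, Slco1a4, Slco1c1, Slc2a1, Abcb1a, Mfsd2a and Ly6c1. They were picked by symbol, as known genes of this barrier, with earlier results of these data known. They are 10 of the 20328 genes in the RNA-seq table. RNA was sequenced from the brains of wild-type female ICR mice in 2 libraries of healthy controls (sham), 1 library of the 6-OHDA-induced PD model and 2 libraries of the NDST3-treated PD model. The toxin 6-OHDA, which kills dopaminergic neurons, was injected on 1 side into the substantia nigra of mice aged 8 weeks, at 10 µg/µl. Lesioned mice received saline or NDST3, and in the NDST3-treated PD model 2 µl of NDST3 followed 5 days after the toxin. The study describes an AAV9 vector with human NDST3 and a lentiviral vector with NDST3. The methods for these mice do not say which was used. The CMV promoter of each is not restricted to a cell type. No library came from a vector without NDST3, so that effects of NDST3 and of its vector cannot be told apart. CUT&RUN for H3K27ac, ATAC-seq and scRNA-seq of the same conditions were also examined where their tables list these genes. The scRNA-seq table gives the 6-OHDA-induced and the NDST3-treated PD model, and a sham scRNA-seq library was not used here. The labels give brain as the tissue and do not say whether libraries came from separate animals, so that p-values measure the spread between these libraries, which may be technical.

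Endothelial cells line the vessels of the brain and form the blood-brain barrier by sealing the gaps between them with tight junctions, by keeping transcytosis low and by carrying selected nutrients in and foreign compounds out. Cldn5 is the main claudin of these tight junctions. Cdh5 (VE-cadherin) holds the adherens junctions together, and Pecam1 (CD31) is an adhesion molecule of endothelial contacts that leukocytes and platelets also carry. Flt1 is a VEGF receptor. Slc2a1 (GLUT1) carries glucose, Slco1c1 carries thyroxine, Slco1a4 carries organic anions, Abcb1a (P-glycoprotein) pumps out foreign compounds, and Mfsd2a carries lysophosphatidylcholine with docosahexaenoic acid and restrains transcytosis. Ly6c1 is a surface protein that marks brain endothelium in the mouse.

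Promoter sequence is shown for 4 members, because it shows how unlike their starts are. The 250 bases before the start site were read from RefSeq (GRCm38.p6). Capitals mark the letters AGGAAG or their reverse complement CTTCCT, a form of the site that ETS factors, regulators of endothelial genes, are known to bind. It is called the ETS core here, and other forms of the site were not searched. The windows lie at chr16:18776597-18776846 (plus strand) for Cldn5, chr4:119108495-119108744 (plus strand) for Slc2a1, chr6:141524104-141524353 (plus strand) for Slco1c1 and chr5:8566841-8567090 (plus strand) for Abcb1a.
Cldn5: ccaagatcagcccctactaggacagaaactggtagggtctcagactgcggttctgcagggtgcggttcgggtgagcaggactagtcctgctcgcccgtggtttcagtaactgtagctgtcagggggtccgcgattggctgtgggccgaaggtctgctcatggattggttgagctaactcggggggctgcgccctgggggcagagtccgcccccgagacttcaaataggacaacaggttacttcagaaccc
Slc2a1: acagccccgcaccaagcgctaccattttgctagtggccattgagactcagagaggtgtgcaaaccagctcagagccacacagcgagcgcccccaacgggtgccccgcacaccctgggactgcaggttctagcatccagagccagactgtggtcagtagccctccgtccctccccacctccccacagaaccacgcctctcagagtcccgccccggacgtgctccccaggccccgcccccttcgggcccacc
Slco1c1: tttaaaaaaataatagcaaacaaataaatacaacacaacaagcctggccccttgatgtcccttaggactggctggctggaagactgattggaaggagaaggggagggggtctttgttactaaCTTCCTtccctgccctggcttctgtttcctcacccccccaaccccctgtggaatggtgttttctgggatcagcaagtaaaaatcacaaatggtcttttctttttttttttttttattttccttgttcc
Abcb1a: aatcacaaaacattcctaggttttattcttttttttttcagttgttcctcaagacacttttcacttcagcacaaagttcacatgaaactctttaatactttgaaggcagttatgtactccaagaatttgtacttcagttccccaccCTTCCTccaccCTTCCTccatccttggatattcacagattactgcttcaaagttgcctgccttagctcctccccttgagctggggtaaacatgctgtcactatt

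The windows of Cldn5 and Slc2a1 were rich in G and C, at 59.6% and 66.4%, with 12 and 13 CpG. Those of Slco1c1 and Abcb1a held 42.8% and 40.4% G and C and no CpG, beside a median of 52.4% over the 32851 promoters of the table. The ETS core was found 0 times in the windows of Cldn5 and Slc2a1, 1 time in that of Slco1c1 and 2 times in that of Abcb1a. Of all promoter windows of this length, 29.5% held it on either strand. The 2 traits did not go together in every member: the window of Flt1 held 70.4% G and C with 23 CpG and 2 ETS cores, and that of Mfsd2a 61.6% with 17 CpG and 0. The core was also found 1 time for Slco1a4 and 0 and 3 times in the 2 windows of Ly6c1. No window was available for Pecam1 and Cdh5. A match is a description of letters and not evidence of binding.

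The members were not equally abundant. In healthy controls, Slc2a1 was highest per length of transcript, at 142 ± 9.52 TPM (SD, n = 2, as for the values that follow), then Ly6c1 at 113 ± 14.5 TPM and Cldn5 at 72.5 ± 8.08 TPM. Mfsd2a followed with 46.7 ± 3.77 TPM and Slco1c1 with 38.1 ± 2.89 TPM. Flt1 (29.0 ± 0.255 TPM), Slco1a4 (28.6 ± 3.90 TPM) and Pecam1 (25.0 ± 4.68 TPM) came next. The ranges of Flt1 and Slco1a4 overlapped, as did those of Slco1a4 and Pecam1, so that the order of these neighbours was not resolved. Abcb1a (20.3 ± 1.36 TPM) and Cdh5 (14.1 ± 3.67 TPM) were lowest. In the library of the 6-OHDA-induced PD model, Cldn5 reached 131 TPM and stood above Ly6c1 at 124 TPM.

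The total count per library lay between 51003699 and 70533326 reads. The single library of the 6-OHDA-induced PD model has no replicate, and the test assumed that it varied like the other groups. Cell type markers moved with the groups: in the sham libraries, the 6-OHDA library and the NDST3 libraries, in that order, 7 monocyte and macrophage markers summed to 419 and 70.6, 5808, and 1416 and 2491 TPM, and 8 microglial markers to 404 and 305, 2266, and 842 and 1461 TPM. The 8 neuronal markers summed to 5106 and 5616, 1678, and 4271 and 3968 TPM. Replicate 2 of the NDST3-treated PD model stood apart with 2140 TPM of 8 choroid plexus markers, against 26.1 to 90.3 TPM in the other libraries.

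**Figure D1:**
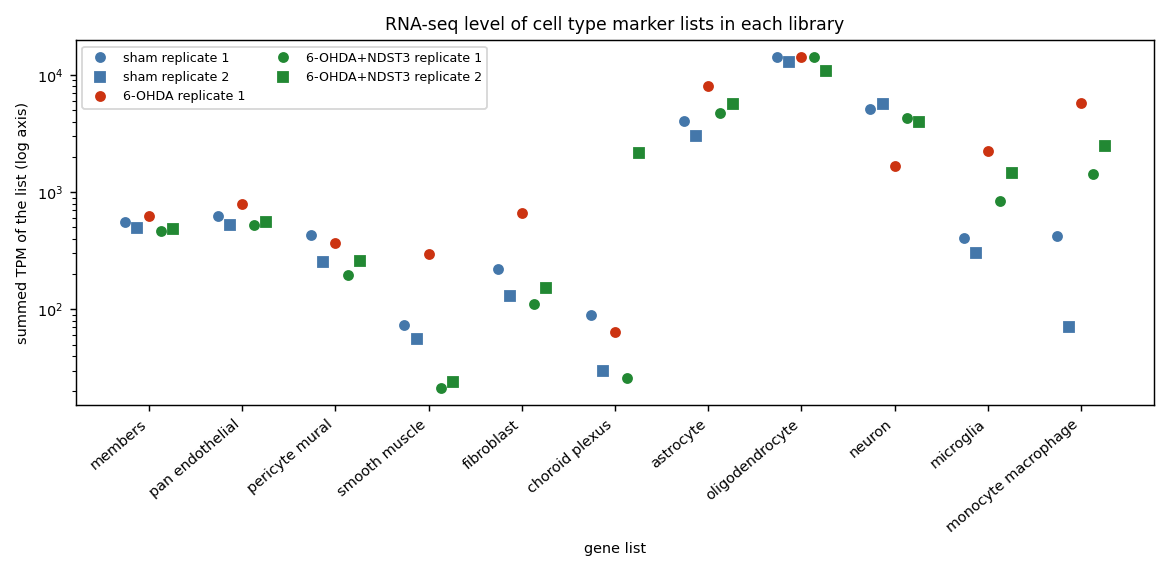
Summed TPM of each marker list (log axis) in the 5 RNA-seq libraries. The 10 members summed to between 463 and 623 TPM, whereas monocyte and macrophage markers spanned 70.6 to 5808 TPM and choroid plexus markers were high in 1 NDST3 library.

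In the 6-OHDA-induced PD model against healthy controls, the question is how the lesion changed these genes. Cldn5 and Cdh5 rose by about as much as each other, Slco1a4 rose less, and the other 7 members did not pass the test. Thus 3 of 10 members were called higher and 0 lower at an adjusted p of less than 0.05 by edgeR (quasi-likelihood F test, Benjamini-Hochberg over 19300 genes), where 18.8% of all genes tested were higher and 17.1% lower. For 9 members the 6-OHDA library did not overlap with sham (8 above and 1 below both sham libraries), and neither did it for 89.7% of all genes. The median log2 fold change of the members was 0.31, beside -0.0025 over all genes. In bulk tissue, more cells of a type and more RNA per cell cannot be told apart, nor can fewer cells and less RNA per cell.

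Of the junction genes, Cldn5 had 45.3 and 38.8 CPM (counts scaled to the size of the library, with TMM factors) in the sham libraries and 87.1 CPM in the 6-OHDA library. Its log2 fold change was 1.05 (SE 0.15, edgeR adjusted p = 0.00955). Cdh5 had 27.2 and 18.8 CPM in sham and 48.4 CPM in the 6-OHDA library, a log2 fold change of 1.07 (SE 0.26, edgeR adjusted p = 0.0315). Both genes were higher in the 6-OHDA library than in either sham library. Pecam1, the third contact gene, had 38.0 and 29.2 CPM in sham and 53.4 CPM in the 6-OHDA library, with a log2 fold change of 0.67 (SE 0.21, edgeR adjusted p = 0.0618) that did not pass the threshold.

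Of the transporters, Slco1a4 had 48.6 and 39.8 CPM in sham and 66.3 CPM in the 6-OHDA library, and its log2 fold change was 0.59 (SE 0.16, edgeR adjusted p = 0.0433). Slco1c1, of the same family, had 47.3 and 52.8 CPM in sham and 52.7 CPM in the 6-OHDA library, within the sham range, with a log2 fold change of 0.08 (SE 0.12, edgeR adjusted p = 0.645). The glucose carrier Slc2a1 had 156 and 142 CPM in sham and 174 CPM in the 6-OHDA library. Its log2 fold change of 0.22 (SE 0.11) and that of the efflux pump Abcb1a, 0.23 (SE 0.12), were not called (edgeR adjusted p = 0.184 and 0.190). Mfsd2a had 43.5 and 38.8 CPM in sham and 49.7 CPM in the 6-OHDA library, with a log2 fold change of 0.27 (SE 0.26, edgeR adjusted p = 0.448).

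Flt1 was the only member whose value lay below both sham libraries. It had 79.2 and 78.5 CPM in sham and 63.1 CPM in the 6-OHDA library, with a log2 fold change of -0.32 (SE 0.10, edgeR adjusted p = 0.0602) that was not called. Ly6c1 had 43.3 and 36.3 CPM in sham and 50.5 CPM in the 6-OHDA library (log2 fold change 0.34, SE 0.16, edgeR adjusted p = 0.161). With sham replicate 1 or 2 left out, edgeR called 0 members, and 0 of all genes, in this comparison, where 4 and 2 members and 7499 and 6284 genes had an unadjusted p under 0.05.

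**Figure D2:**
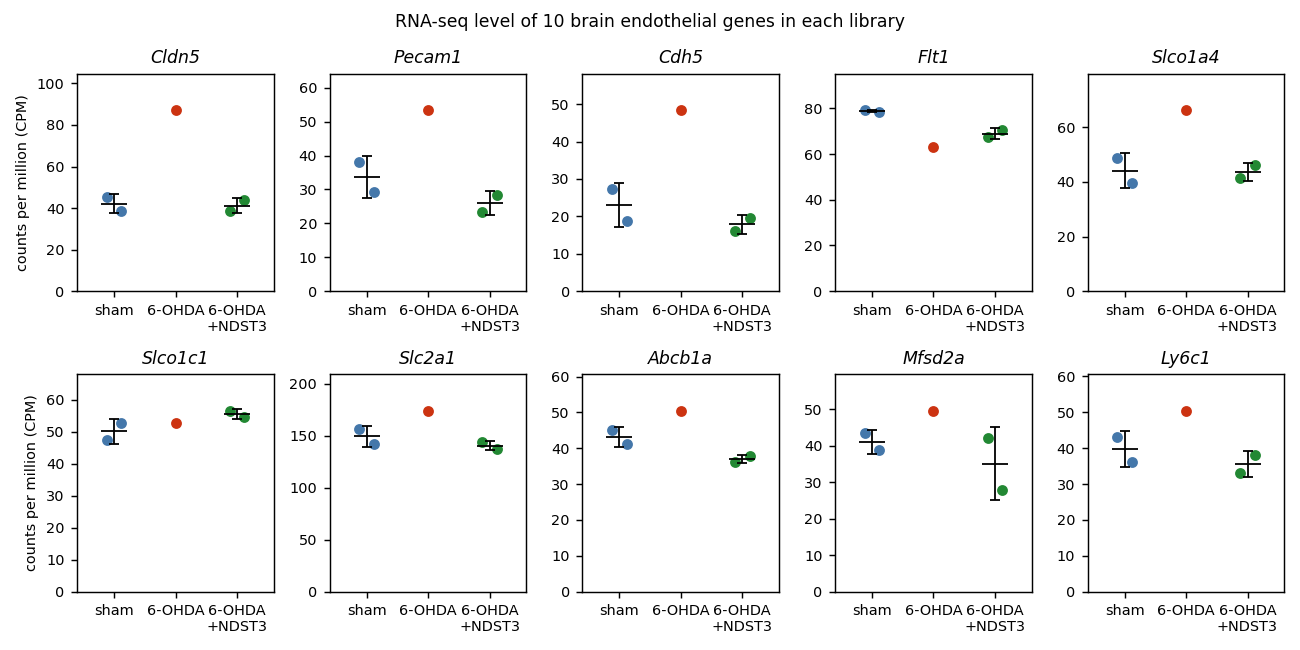
CPM of each member (y axis from 0, one panel per gene) in the sham, 6-OHDA and 6-OHDA+NDST3 libraries. Points are libraries and bars the mean ± SD of the groups with n = 2. Cldn5 stands at 87.1 CPM in the 6-OHDA library against 38.6 to 45.3 CPM in the others, whereas Slco1c1 lies between 47.3 and 56.6 CPM throughout.

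In the NDST3-treated against the 6-OHDA-induced PD model, the question is how the vector changed these genes after the lesion. The 3 genes of cell contacts, Cldn5, Cdh5 and Pecam1, passed the test with lower values, and no member passed it with higher values. Thus 3 of 10 members were called lower at an adjusted p under 0.05, where 6.59% of all genes tested were lower and 9.06% higher. The groups' libraries did not overlap for any of the 10 members, nor for 85.6% of all genes. The median log2 fold change of the members was -0.50, beside 0.0029 over all genes. This comparison shares its single 6-OHDA library with the one against sham, so that their directions are not independent.

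Cldn5 had 38.6 and 43.8 CPM in the NDST3-treated PD model and fell by 1.08 on the log2 scale from 87.1 CPM (SE 0.14, edgeR adjusted p = 0.0320). Cdh5 had 16.0 and 19.7 CPM and fell by 1.44 from 48.4 CPM (SE 0.26, edgeR adjusted p = 0.0365). Pecam1 had 23.4 and 28.4 CPM and fell by 1.04 from 53.4 CPM (SE 0.21, edgeR adjusted p = 0.0409). In all 3 genes, both NDST3 libraries lay below the 6-OHDA library.

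The transporters were not called, and a difference between them and the contact genes was not tested. Slco1a4 had 41.4 and 46.1 CPM against 66.3 CPM, with a log2 fold change of -0.60 (SE 0.16, edgeR adjusted p = 0.0628). Abcb1a had 36.2 and 37.9 CPM against 50.5 CPM (log2 fold change -0.45, SE 0.12, edgeR adjusted p = 0.0610), and Slc2a1 had 143 and 137 CPM against 174 CPM (log2 fold change -0.31, SE 0.11, edgeR adjusted p = 0.115). The NDST3 libraries of Mfsd2a differed most from each other among the members, with 42.3 and 28 CPM against 49.7 CPM (log2 fold change -0.50, SE 0.26, edgeR adjusted p = 0.219). Slco1c1 had 56.6 and 54.4 CPM against 52.7 CPM, a log2 fold change of 0.07 (SE 0.12). Ly6c1 had 33.0 and 38.1 CPM against 50.5 CPM (log2 fold change -0.51, SE 0.16, edgeR adjusted p = 0.0917), and Flt1 had 67.3 and 70.6 CPM against 63.1 CPM (log2 fold change 0.13, SE 0.10).

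These calls rested on few libraries. In this comparison no member was called by edgeR without sham replicate 1 or 2, or without replicate 1 of the NDST3-treated PD model. In these fits hardly any gene of all tested was called either, so that the loss was not particular to the members. The sham libraries enter only through the shared spread. Without replicate 2, the library with choroid plexus markers, members and other genes were still called. With 1 library left out, log2 fold changes lay between -1.21 and -0.99 for Cldn5, -1.63 and -1.30 for Cdh5 and -1.22 and -0.91 for Pecam1.

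In the NDST3-treated PD model against healthy controls, edgeR called 0 members and 0 of all genes (0%). At an unadjusted p under 0.05 there were 0 members and 2744 genes, and DESeq2 called 0 members and 1048 genes. Log2 fold changes of the members lay between -0.38 (Pecam1, SE 0.17) and 0.15 (Slco1c1, SE 0.10), with a median of -0.18, and the smallest adjusted p was 0.373. For Cldn5 the difference was -0.03 (SE 0.12) and for Slco1a4 -0.01 (SE 0.13). The libraries of the 2 groups did not overlap for 4 members (Pecam1, Flt1 and Abcb1a lower, Slco1c1 higher), beside 48.9% of all genes. A p that misses the threshold does not show that the groups were alike.

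**Figure D3:**
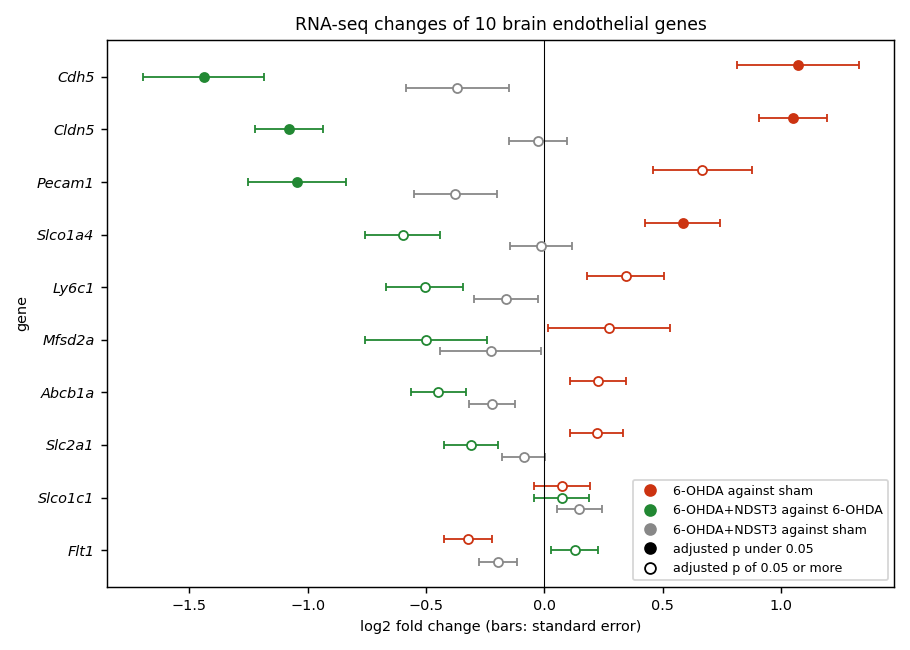
Log2 fold change (x axis) with its SE for the 10 members (y axis) in the 3 comparisons. Filled points passed an adjusted p of 0.05: Cldn5, Cdh5 and Slco1a4 in the 6-OHDA library against sham, Cldn5, Cdh5 and Pecam1 in the NDST3-treated against the 6-OHDA-induced PD model, and none in the NDST3-treated PD model against sham.

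Other genes of the vessel wall were read from lists written down by function, with earlier results of these data known. Of all genes tested, 18.8% rose and 17.1% fell in the 6-OHDA library against sham, and 9.06% rose and 6.59% fell after the vector. Of 24 pan-endothelial genes, which include transcription factors, receptors and adhesion molecules, 11 rose and 0 fell in the 6-OHDA library against sham, with a median log2 fold change of 0.55. The most changed were Fli1, an ETS factor, at 2.47 (SE 0.32), and Clec14a, an endothelial surface lectin, at 1.89 (SE 0.36). In the NDST3-treated against the 6-OHDA-induced PD model, 9 fell and 0 rose, with a median of -0.82. Clec14a fell by 1.76 and Vwf, the von Willebrand factor, by 1.66.

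Of 12 tight junction genes, 6 rose and 2 fell in the 6-OHDA library against sham. F11r, the junctional adhesion molecule A, rose by 2.12 (SE 0.31) and Lsr, a protein of tricellular junctions, by 1.25 (SE 0.20). The cytoplasmic junction protein Cgn (cingulin) fell by 2.21 (SE 0.24) and its relative Cgnl1 by 0.58 (SE 0.12). In the NDST3-treated PD model, Lsr was lower than in the 6-OHDA library by a log2 fold change of -1.41 and Esam, an endothelial adhesion molecule, by -0.90, whereas Cgn was higher by 1.88. These were among 3 lower and 1 higher of the 12.

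Of 16 barrier transporters, 9 rose and 1 fell in the 6-OHDA library against sham. The monocarboxylate carrier Slc16a1 rose by 1.86 (SE 0.22), the amino acid carrier Slc38a5 by 1.78 (SE 0.30), and the transferrin receptor gene Tfrc fell by 0.57 (SE 0.11). In the NDST3-treated against the 6-OHDA-induced PD model, 4 fell and 0 rose, among them Slc38a5 by 1.5 and the efflux pump Abcg2 by 1.36. Of 16 genes of the Wnt signal that maintains the barrier, 4 rose and 0 fell against sham, with Ndp, the ligand norrin, at 1.23 (SE 0.21) and its co-receptor Lrp5 at 1.10 (SE 0.17). After the vector 5 fell, with Adgra2 (GPR124, a Wnt co-activator) at -1.64 and the forkhead factor Foxf2 at -1.03.

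Genes of activated or leaky endothelium had the highest median of the vascular lists, 1.66, in the 6-OHDA library against sham, where 6 of the 10 tested rose and 1 fell. The adhesion molecule Icam1 rose by 2.83 (SE 0.32) and Cavin1, a coat protein of caveolae, by 1.73 (SE 0.23). Plvap, which forms the diaphragms of fenestrated vessels, fell by 1.11 (SE 0.22). In the NDST3-treated against the 6-OHDA-induced PD model, 4 fell and 1 rose, with Lrg1, a secreted glycoprotein, at -2.04, Cavin1 at -1.85 and Plvap at 0.93. Of 9 VEGF and angiopoietin genes, 4 rose and 2 fell against sham. The ligand Angpt1 rose by 1.76 (SE 0.26) and the co-receptor Nrp1 by 1.44 (SE 0.17), while Vegfa fell by 0.87 (SE 0.23) and Vegfb by 0.63 (SE 0.13). After the vector Nrp1 fell by 0.99 and no other gene of this list was called. No gene of these 6 lists was called in the NDST3-treated PD model against sham, where 0 of all 19300 genes tested were.

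**Figure D4:**
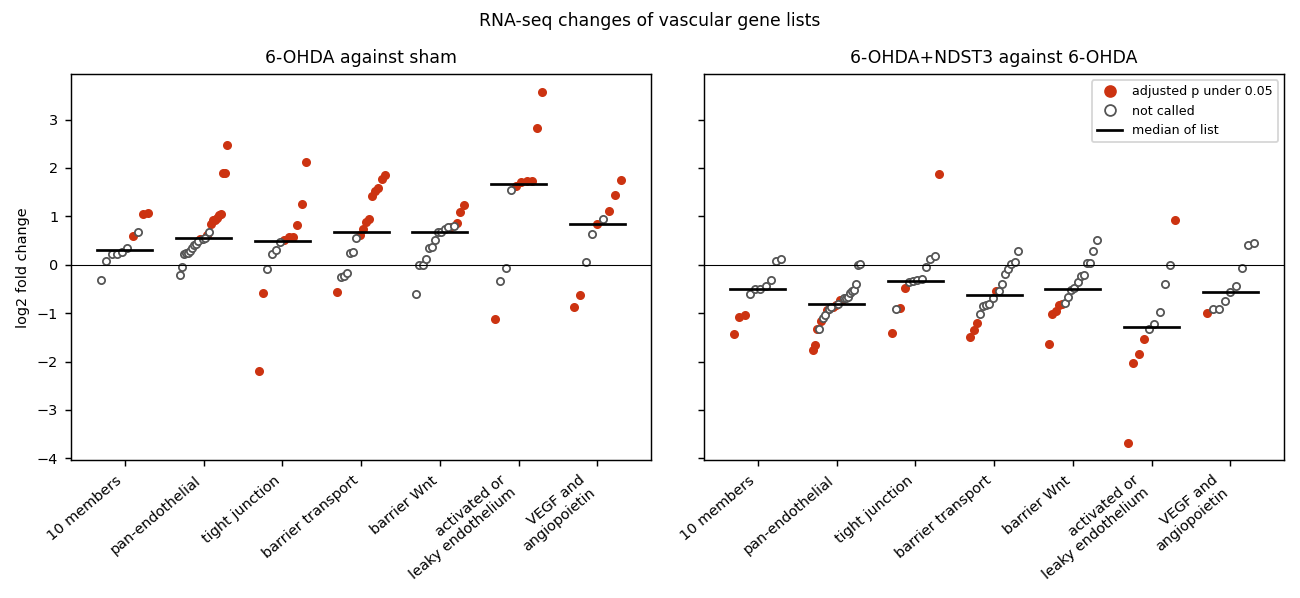
Log2 fold change (y axis) of the genes of 7 vascular lists (x axis) in the 6-OHDA library against sham (left) and in the NDST3-treated against the 6-OHDA-induced PD model (right). Filled points passed an adjusted p of 0.05 and lines are list medians, which run from 0.31 to 1.66 on the left and lie below 0 on the right.

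Markers of cells next to the endothelium also changed. Of all genes tested, 18.8% rose in the 6-OHDA library against sham and 6.59% fell after the vector. All 6 fibroblast markers rose in the 6-OHDA library against sham and all 6 fell after the vector, and their sum was 220 and 130 TPM in sham, 665 TPM in the 6-OHDA library and 111 and 153 TPM in the NDST3-treated PD model. The 5 smooth muscle markers summed to 73.6 and 55.7, 296, and 21.2 and 23.8 TPM, where 2 rose and then all 5 fell. The 10 pericyte and mural markers summed to 433 and 253, 371, and 195 and 257 TPM, so that the 6-OHDA library lay within the sham range, where 3 rose and then 2 fell. The part of these cells in the changes of the members was not tested.

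Some members have relatives whose reads could be mistaken for theirs. Of the 100-base windows of the Ly6c1 transcript, 15.3% occurred also in Ly6c2, and of those of Abcb1a 7.72% occurred also in Abcb1b or Abcb4, so that the counts of both are uncertain to that extent. For Slco1a4 the share was 1.10%, with Slco1a1 and Slco1a5, and for the other 7 members it was 0. Ly6c2 had 3.88 to 6.43 CPM and Abcb1b 2.03 to 4.32 CPM over the 5 libraries, below the lowest value of Ly6c1 (33.0 CPM) and of Abcb1a (36.2 CPM).

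The scRNA-seq table shows in which cells these genes were found. It lists means over the cells of 9 numbered clusters, read here as natural logs of 1 plus the normalized count, for 1 library per group, so that no test was possible. All 10 members were highest in cluster 7, as were all 24 pan-endothelial genes, and cluster 7 is called endothelial-like here. The study's methods name it endothelial from markers that include Cldn5, Cdh5 and Pecam1, so that the levels of these members there are not independent of the name. Multiplets were limited in the study by a cap on the genes detected per cell, and the deposited means allow no doublet call. Outside cluster 2, the choroid plexus gene Ttr had means of 0.26 to 0.41 in the 6-OHDA library and 0.11 to 0.14 in the NDST3 library. The part of multiplets, or of RNA carried over from other cells, in the values of the members outside cluster 7 was not tested. Of the 8 choroid plexus, 10 pericyte and 7 monocyte and macrophage markers, 1, 2 and 2 had a mean above 0.1 there, of the 8 neuronal, 8 astrocyte and 8 microglial markers 1, 1 and 2 did, and of the 5 smooth muscle, 6 fibroblast, 7 oligodendrocyte, 6 B cell, 7 neutrophil and 7 T cell markers 0 did.

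In cluster 7, Flt1 was highest, with means of 3.92 in the 6-OHDA-induced and 3.91 in the NDST3-treated PD model, followed by Cldn5 with 3.66 and 3.76 and Ly6c1 with 3.45 and 3.50. Slco1a4 (2.81 and 2.87), Slco1c1 (2.76 and 2.70) and Slc2a1 (2.58 and 2.75) were in between. Abcb1a (2.19 and 2.15), Pecam1 (1.97 and 2.09), Cdh5 (1.29 and 1.36) and Mfsd2a (1.01 and 0.85) were lowest. This order differs from that of TPM in tissue, where Slc2a1 led, and the scRNA-seq values are not per length.

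The members differed in how far they kept to cluster 7. Mfsd2a passed a mean of 0.1 in at least 1 group in 1 of 9 clusters and Cdh5 in 2, whereas Flt1 and Slc2a1 passed it in all 9. This count follows abundance too, since Mfsd2a and Cdh5 were lowest in cluster 7 and Flt1 highest. Back-transformed to normalized counts, Flt1 had 49.6 and 48.9 in cluster 7 and 0.74 and 0.44 in cluster 3, its next highest. Mfsd2a had 1.76 and 1.35 in cluster 7 and 0.081 and 0.061 in cluster 2. In proportion to cluster 7, Flt1 was thus the lower of these 2 genes outside it. On the log scale of the means, Slc2a1 had 0.88 and 0.84 in cluster 3 and 0.79 and 0.86 in cluster 2. Abcb1a had 0.90 and 0.74 in cluster 4, where all 7 T cell markers were highest. Pecam1 had 0.83 and 0.78 in cluster 9, where all 6 B cell markers were highest, and 0.76 and 0.70 in cluster 1, where all 7 neutrophil markers were. Across the 9 clusters, Pecam1 correlated least with the mean profile of the members (Pearson's r = 0.895), then Abcb1a (0.939) and Slc2a1 (0.962), while the other 7 lay at 0.994 or above. The member itself is part of that mean, and cluster 7 dominates it.

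**Figure D5:**
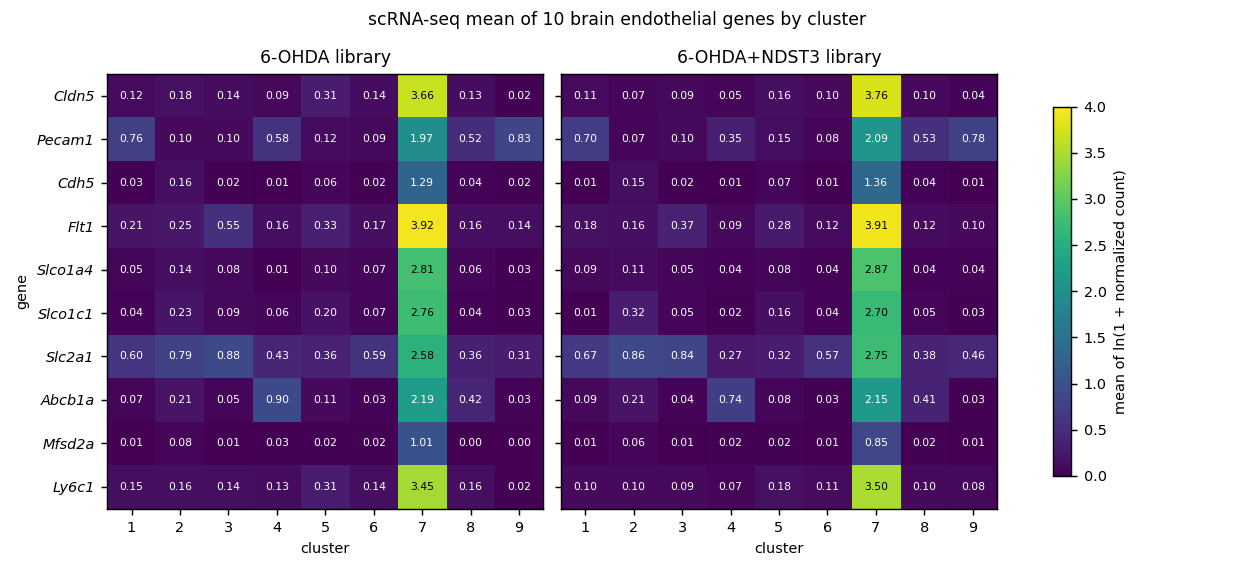
Deposited scRNA-seq mean, as ln(1 + normalized count), of the 10 members (rows) in clusters 1 to 9 (columns) of the 6-OHDA (left) and the 6-OHDA+NDST3 library (right). Every member is highest in cluster 7, and Abcb1a, Pecam1 and Slc2a1 have means of 0.74 or more in another cluster of each library.

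The levels in cluster 7 differed little between the groups. From the 6-OHDA-induced to the NDST3-treated PD model, the difference ran from -0.23 (Mfsd2a) to 0.25 (Slc2a1) on the log2 scale. For the 3 members that fell in tissue it was 0.15 (Cldn5), 0.10 (Cdh5) and 0.17 (Pecam1), with the NDST3-treated PD model higher. No member reached a difference of 1 in any cluster (0 of 90 gene and cluster pairs), and in cluster 7 neither did any of the 7656 genes detected (0%). The shares of detected genes that did were 0.0749% in cluster 3, 0.2% in cluster 4, 0.0455% in cluster 6, 0.136% in cluster 9 and 0% in the rest. Where both means of a pair are low, a difference of 1 cannot be reached on this scale, so that many pairs outside cluster 7 could not have passed. With means back-transformed to normalized counts and 0.1 added, log2 ratios of the members ran from -0.82 (Cldn5, cluster 2) to 0.65 (Ly6c1, cluster 9). In cluster 7, 4 of 10 members were lower in the NDST3-treated PD model, beside 39.8% of the genes detected. In the other clusters, 3 to 8 members were detected, with a mean above 0.1 in at least 1 group. Lower with the vector were 4 of 5 of them in cluster 1 (48.3% of the genes detected), 5 of 8 in cluster 2 (47%), 5 of 5 in cluster 3 (44.1%) and 5 of 5 in cluster 4 (47.1%). The count was 7 of 8 in cluster 5 (53.2%), 4 of 4 in cluster 6 (44.1%), 4 of 6 in cluster 8 (44.5%) and 2 of 3 in cluster 9 (56.8%). Members that passed 0.1 only in the 6-OHDA library were lower with the vector by the filter itself. Examples in cluster 3 are Cldn5 (0.14 and 0.090) and Ly6c1 (0.14 and 0.094). These counts, and the medians that follow, therefore cannot show an effect of the vector. The median difference of the detected members was -0.23 in cluster 4, between -0.07 and -0.03 in the other 7 of these clusters and 0.08 in cluster 7, with 1 library per group and no test.

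Some genes of the other vascular lists were also found outside cluster 7. Fli1 had 1.54 and 1.5 in cluster 7 and 1.38 and 1.27 in cluster 6, where 7 of 8 microglial markers were highest. F11r had 0.79 and 0.81 in cluster 7 and 0.68 and 0.63 in cluster 6, and Icam1 had 1.19 and 1.29 in cluster 7 and 1.33 and 1.30 in cluster 6. Cavin1 was highest in cluster 5 (1.59 and 1.63), where all pericyte and smooth muscle markers were highest, with 0.92 in both groups in cluster 7. Lrg1 was highest in cluster 1, with 0.66 and 0.62 against 0.05 and 0.08 in cluster 7, and in tissue the 3 neutrophil markers tested summed to 10.3 and 8.15 TPM in sham, 78.0 TPM in the 6-OHDA library and 27.3 and 51.8 TPM in the NDST3-treated PD model. Ndp was at 0 in cluster 7, and Cgn did not pass 0.0304 in any cluster. By contrast, Lsr (1.16 and 1.18), Slc38a5 (0.75 and 0.78) and Clec14a (0.52 and 0.58) were highest in cluster 7, and none of them passed 0.16 in any other. Of 4407 other genes with a mean of at least 0.5 in a cluster, those most like the members' mean profile over the 9 clusters were Ndnf, Spock2, Sema3c, Ddc and Mcf2l (r = 0.999 in each).

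Chromatin tables held little on these genes. No member has a region in the H3K27ac table, in which 32.9% of the RNA-seq genes have one. In the ATAC-seq table, where 9.5% of the RNA-seq genes have a region, Mfsd2a is the only member with one, at a stated distance of -716 bases from its start site. Its signal was 6.90 in sham, 5.0 in the 6-OHDA-induced and 9.5 in the NDST3-treated PD model, from 1 library each. Log2 ratios after adding 1 were -0.40 for the 6-OHDA-induced PD model against sham, 0.81 for the NDST3-treated against the 6-OHDA-induced PD model and 0.41 for the NDST3-treated PD model against sham. None was 2-fold, where 4.58%, 4.41% and 8.37% of regions were at least 2-fold higher and 5.06%, 3.53% and 5.91% at least 2-fold lower in these comparisons. In tissue RNA, Mfsd2a was not called in any of the 3. The stated start sites lay within 2000 bases of a GRCm38 gene end for 11.1% of ATAC-seq regions, so that the coordinates of this region are not given here and no sequence was read from them.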

How the data were processed

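Reads of the RNA-seq libraries were trimmed with Trimmomatic, aligned to mm10 with HISAT2 and quantified with StringTie by the authors, who deposited a read count, FPKM and TPM per gene. The scRNA-seq means are headed as mean counts, and the deposited values fit a natural log (ln) of 1 plus a normalized count. The signal of CUT&RUN and ATAC-seq regions was deposited per group by the authors, with a scaling not given in the sources used here, and 1 column pools both CUT&RUN libraries of a group.

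Counts were fitted with edgeR 4.0.16 (R 4.3.3; TMM factors, default filter, quasi-likelihood test, all 5 libraries, 2 residual degrees of freedom), with Benjamini-Hochberg adjustment over 19300 genes. The SE is the log2 fold change divided by the square root of F. DESeq2 1.42.0, limma 3.58.1 on log2 FPKM (pseudocount 1 or 0.1), other scalings and filters, a replicate block and leaving out libraries were alternatives. The fit was tested on simulated data. Depth was 51003699 to 70533326 counts per library.

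The members and gene lists were chosen with earlier results of these data known. All members are named, and of each list the 2 genes with the largest change in each direction among those called with a mean CPM of at least 1. In scRNA-seq, 4 rows with date-like names were left out and a mean above 0.1 counted as detected. Python 3.11.15 was used for the rest.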

Additional observations from a re-analysis of the deposited data

How the results depend on the processing

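Over all alternatives, 371 values of single members kept their direction and their side of the threshold, 35 no longer passed it, 6 newly passed it and 8 changed sign. Against sham, limma called 1 member in the 6-OHDA library on log2(FPKM + 1) and 1 on log2(FPKM + 0.1), beside 6822 and 6758 of 19300 genes. In the NDST3-treated against the 6-OHDA-induced PD model, DESeq2 called 5 members, beside 5262 of 16781 genes. There limma called 1 on either scale, beside 2777 and 2509 of 19300 genes. A fit of only the 2 groups called 0 members and 0 of 19091 genes. Leaving out 1 library lowered the number of members called in some fits of both comparisons. The last 2 settings also had fewer samples, and the cause of these differences was not tested. With the replicate block, 0 members were called in either comparison, and over all genes 1796 and 0. Libraries with the same number deviated against each other (correlation -0.43). With crossed numbers, an alternative chosen after seeing the data, 4 and 4 members were called, beside 7444 and 4795 of 19300 genes.

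The 8 values that changed sign were small. Slco1c1 in the 6-OHDA library against sham was -0.0024 without sham replicate 1, in a range up to 0.16 with 1 library left out. In the NDST3-treated PD model against sham, Slco1a4 was 0.024 and 0.027 with limma (pseudocounts 1 and 0.1), and -0.15 to 0.14 with 1 library left out. The same range was -0.14 to 0.087 for Cldn5 and -0.56 to 0.017 for Mfsd2a. The signs turned without sham replicate 1 or NDST3 replicate 1 (Slco1a4 and Cldn5) and without NDST3 replicate 2 (Mfsd2a). The log2 fold change of Cldn5 against sham lay between 0.94 and 1.17 over 14 alternatives, with an adjusted p under 0.05 in 11, that of Cdh5 between 0.83 and 1.36 (9 of 14) and that of Slco1a4 between 0.45 and 0.74 (6 of 14). In ATAC-seq, the log2 ratios of the Mfsd2a region with a pseudocount of 0.1 were -0.46 for the 6-OHDA-induced PD model against sham, 0.91 for the NDST3-treated against the 6-OHDA-induced PD model and 0.46 for the NDST3-treated PD model against sham, and at 1.5-fold 1 of the 3 ratios passed. The H3K27ac alternatives gave no value, since no member has a region. The depth of the ATAC-seq and scRNA-seq libraries is unknown.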
